A study of Homo sapiens with 30 samples.

Results

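TIAL1, also known as TIAR, is the closest relative of the RNA-binding protein TIA1. Its messenger RNA was followed here as 1 row, identifier ENSG00000151923, among the 60664 genes of a read-count table. The gene was chosen by its CPM values, to be followed over all 10 groups, and its row was found by symbol, so each TIAL1 level and comparison is given as a description without a test. Tests are given for other genes, which were called where the adjusted p of edgeR's quasi-likelihood test (Benjamini-Hochberg, over all genes of a fit) was under 0.05. On GRCh38 the gene lies on chromosome 10, from 119571802 to 119597029 on the minus strand, and the GENCODE v44 annotation gives it 13 transcripts, of which 4 are protein coding, 4 retain an intron and 2 are marked for nonsense-mediated decay. No other annotated gene overlaps it.

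The study used a pair of lines derived from Flp-In T-REx HEK293 cells, an established human embryonic kidney line with a docking site for a transgene under tetracycline control. Both carry GFP-tagged TIA1a, either wild-type (WT) or bearing the mutation of Welander distal myopathy, a late-onset muscle disease (WDM). Cytosol RNA came from both lines untreated, with tetracycline (tet), and with tetracycline followed by 0.5 mM sodium arsenite for 60 min, an oxidative stress. Granule RNA, captured by its GFP tag from material spun down at high speed, came from both lines with tetracycline, with or without arsenite. These are 10 groups of 3 libraries, 18 of cytosol and 12 of granules. The parental line without a transgene was not analysed here, so the effect of tetracycline and that of the induced protein cannot be told apart. Granules were captured through the induced protein, so there is no untreated granule group. Nothing in the labels says that replicates were separate cultures, and p-values measure only the spread between these libraries.

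TIAL1 and TIA1 bind RNA through RNA recognition motifs, with a preference for U-rich stretches, and end in a glutamine-rich, prion-like tail. In the nucleus they help U1 snRNP recognise weak 5′ splice sites that are followed by U-rich intron sequence. In the cytoplasm they repress translation of messages with AU-rich 3′ ends, and on stress they gather in stress granules with stalled initiation complexes.

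Library totals ran from 5906167 to 27419145 counts, and 3 counts, the most that a count of 0 allows, correspond to 0.109 to 0.508 CPM, a unit that divides counts by the library total. TIAL1 itself had 337 to 3712 counts per library, which gives a counting error of 1.64% to 5.45%, while its coefficient of variation within groups was 2.35% to 24.2%. These limits cover counting error only. Expression of KRT8 (30.9 to 177 CPM), CDH2 (172 to 323 CPM) and VIM (174 to 841 CPM) was found in every library, HBB of red blood cells had no count, and PTPRC of leukocytes at most 4 counts. PAX2 of kidney ran from 0.892 to 20.0 CPM. COL1A1 of fibroblasts (1.11 to 6.27 CPM), ACTA1 of muscle (0.0736 to 3.27 CPM) and ALB of hepatocytes (0.0793 to 0.673 CPM) had counts in every library. PECAM1, DCN and MYH7 had no count in 4, 10 and 22 libraries. TIA1 had 3 counts in all 30 libraries together, so neither the transgene nor the endogenous paralog could be followed beside TIAL1. Of its exon length 99.3% falls within the span of C2orf42, an annotated gene of that strand, but only 3.19% within the exons of C2orf42.

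TIAL1 was highest in granules without arsenite and lowest in cytosol with tetracycline alone. In WT granules without arsenite it stood at 116, 90.4 and 147 CPM, a mean of 118 ± 28.6 (SD, n = 3). WDM granules without arsenite gave 131, 93.3 and 102 CPM, with a mean of 109 ± 20.0. With arsenite the WT granules gave 74.8, 87.3 and 69.2 CPM, a mean of 77.1 ± 9.26. Every granule library without arsenite was thus above every granule library of the same line with arsenite, although in each line the nearest libraries lay close together.

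In untreated cytosol the levels were 70.5, 58.6 and 61.6 CPM in WT, with a mean of 63.6 ± 6.16. Untreated WDM cytosol had 67.2, 70.4 and 69.1 CPM, and its mean of 68.9 ± 1.62 had the smallest SD of the 10 groups. The lines overlapped. With tetracycline the WT cytosol libraries stood at 44.4, 32.0 and 28.8 CPM, a mean of 35.1 ± 8.22. Those of WDM stood at 45.5, 31.2 and 43.8 CPM, a mean of 40.2 ± 7.86. None of these 6 libraries reached the lowest untreated one. With arsenite added, WT cytosol had 65.0, 60.1 and 52.8 CPM, with a mean of 59.3 ± 6.16. WDM cytosol with arsenite had 88.3, 70.3 and 63.1 CPM, with a mean of 73.9 ± 12.9, and WDM granules with arsenite had 91.7, 77.3 and 69.6 CPM, with a mean of 79.5 ± 11.2.

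With the 10 groups ordered by mean, 7 of the 9 pairs of neighbours overlapped in their libraries. The 2 that did not were WDM granules without arsenite against WDM granules with arsenite, and WT cytosol with arsenite against WDM cytosol with tetracycline alone. The lowest WT granule library without arsenite (90.4 CPM) was nevertheless below the highest WDM granule library with arsenite (91.7 CPM). Between these 2 steps in the means stood 6 groups, namely granules with arsenite, untreated cytosol and cytosol with arsenite, and each overlapped its neighbours among them. Groups farther apart in that order did not all overlap: both granule groups with arsenite and untreated WDM cytosol lay wholly above WT cytosol with arsenite, whose highest library had 65.0 CPM.

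**Figure D1:**
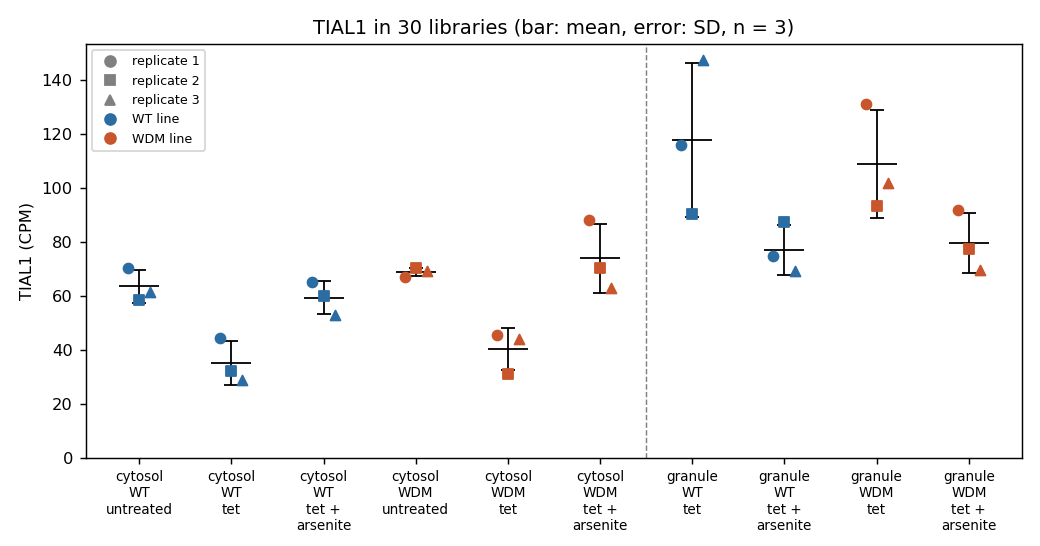
TIAL1 level in CPM (vertical axis, from 0) in each of the 30 libraries, by group, with the replicate number as the symbol, the line as the colour, and the mean and SD over 3 libraries in black. The 6 cytosol libraries with tetracycline alone lie between 28.8 and 45.5 CPM, below all others, and the 6 granule libraries without arsenite between 90.4 and 147 CPM.

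The first comparison in cytosol sets tetracycline-treated cells against untreated cells, which asks what inducing either form of TIA1 goes with. TIAL1 was lower with tetracycline in both lines, by a log2 fold change of -0.82 in WT (SE 0.142, 95% interval -1.12 to -0.52) and -0.76 in WDM (SE 0.141, 95% interval -1.05 to -0.46). Among the 16670 genes fitted in cytosol, 448 had a lower value than TIAL1 in WT and 452 in WDM, and the middle 90% of genes ran from -0.65 to 0.45 in WT. The difference between the lines in this response was 0.06 on the log2 scale (95% interval -0.35 to 0.48). CPM is a share of the library, and in these bulk samples less RNA of a gene per cell and fewer cells that hold it cannot be told apart.

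Arsenite on top of tetracycline was next compared with tetracycline alone. The TIAL1 level in cytosol was higher with arsenite, by 0.63 on the log2 scale in WT (SE 0.141, 95% interval 0.33 to 0.92) and by 0.79 in WDM (SE 0.140, 95% interval 0.50 to 1.08). It ranked at the 88.0th percentile of all genes in WT and at the 92.6th in WDM. Without TMM factors, with libraries scaled by their totals alone, the median of all genes moved up by 0.13 in WT. The share of called genes that were higher with arsenite then moved from 47.1% to 76.7% in WT and from 48.8% to 66.8% in WDM. Against untreated cytosol the arsenite-treated level differed by -0.19 in WT (95% interval -0.48 to 0.10) and by 0.03 in WDM (95% interval -0.25 to 0.32), and the libraries overlapped in both lines. This comparison and the one before share the libraries with tetracycline alone. Between the lines, the WDM level minus the WT level in cytosol was 0.08 untreated (95% interval -0.21 to 0.37), 0.15 with tetracycline (-0.15 to 0.45) and 0.31 with arsenite (0.02 to 0.59), and the libraries overlapped in all 3 conditions.

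**Figure D2:**
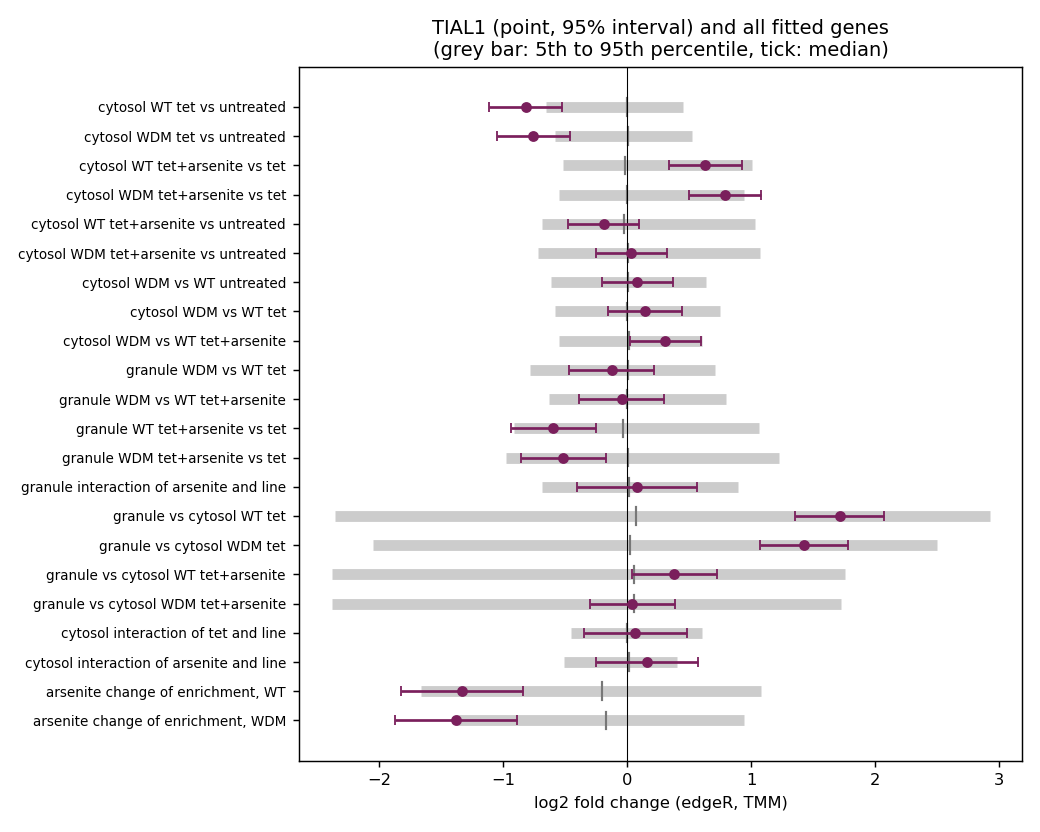
Log2 fold change of TIAL1 (point) with its 95% interval for 22 comparisons (vertical axis), over the 5th to 95th percentile of all genes fitted in the same comparison (grey bar, with a tick at the median). In cytosol TIAL1 lies beyond the 5th percentile with tetracycline, while the 2 granule comparisons of arsenite with tetracycline alone lie inside it at -0.60 and -0.52.

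In the granule fraction TIAL1 was lower with arsenite in both lines, the opposite direction to cytosol. The log2 fold change was -0.60 in WT (SE 0.167, 95% interval -0.94 to -0.25), and 2692 of 18366 genes had a lower value. In WDM it was -0.52 (SE 0.167, 95% interval -0.86 to -0.17), and 3537 genes had a lower value. All 3 libraries of each line without arsenite were above the 3 with arsenite. Without WT tet replicate 3, the granule library with the highest TIAL1 level, the log2 fold change in WT was -0.44. In WDM it was -0.39 without WDM tet replicate 1 and -0.44 without WDM arsenite replicate 3.

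The lines overlapped for TIAL1 in granules in both conditions. The WDM level minus the WT level was -0.13 on the log2 scale without arsenite (95% interval -0.47 to 0.22) and -0.05 with it (95% interval -0.39 to 0.29). Over all genes a line difference was called for 5.55% without arsenite and 7.95% with it. The line difference in the arsenite response was 0.08 (95% interval -0.40 to 0.56). Over all genes, edgeR called 0 of 18366 genes (0%) for that interaction, while 2329 had an unadjusted p under 0.05, DESeq2 called 9, and edgeR without the low-count filter called 44.

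Granule and cytosol libraries of the same line and treatment were then set side by side. Without arsenite TIAL1 was 1.71 higher in granules on the log2 scale in WT (SE 0.174, 95% interval 1.36 to 2.07) and 1.42 higher in WDM (SE 0.173, 95% interval 1.07 to 1.78), at the 82.4th percentile of 18141 genes in each line. With arsenite the difference was 0.38 in WT (95% interval 0.04 to 0.72) and 0.04 in WDM (95% interval -0.30 to 0.38), near the middle of all genes at the 60.5th and 49.6th percentile. The change of granule enrichment with arsenite was -1.33 in WT (SE 0.241) and -1.38 in WDM (SE 0.24), against a median over all genes of -0.21 and -0.17. It ranked at the 9.93rd percentile in WT and the 4.97th in WDM. The higher cytosol level and the lower granule level with arsenite both enter this value.

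RNAs that stay in the nucleus varied in the same cytosol libraries in which TIAL1 varied. NEAT1, the scaffold of paraspeckles, stood at 132, 46.7 and 53.2 CPM in WT cytosol with tetracycline, in the order of replicates, and at 168, 63.8 and 154 CPM in WDM. MALAT1, an RNA of nuclear speckles, stood at 363, 157 and 144 CPM in the same WT libraries and at 472, 258 and 393 CPM in WDM. The 3 libraries with the lowest TIAL1 were WT replicates 2 and 3 and WDM replicate 2, and they also had the lowest NEAT1 among the 18 cytosol libraries.

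Over all 8 listed nuclear-retained long noncoding RNAs, the summed level ran from 439 to 525 CPM in untreated WT cytosol and from 291 to 679 CPM with tetracycline. In WDM cytosol it ran from 753 to 822 CPM untreated and from 425 to 809 CPM with tetracycline. With arsenite it was 698 to 760 CPM in WT and 744 to 1090 CPM in WDM, and in granules it was between 2593 and 3960 CPM in all 12 libraries. The 3 members MEG3, MIAT and LINC-PINT did not pass the low-count filter. Of the 5 tested members none was called with tetracycline in either line, against 2.93% of all genes called higher and 2.39% lower in WT, and 3.07% and 3.23% in WDM. With arsenite in cytosol NEAT1 (1.10), KCNQ1OT1 (1.37) and PVT1 (0.74) were called higher in WT and KCNQ1OT1 (1.37) in WDM, against 13.7% of all genes in WT and 14.1% in WDM. Both calls of KCNQ1OT1 held under each alternative, while in WT NEAT1 lost its call in 4 of 6 omissions of 1 library and PVT1 in 5 of 6, and both lost it without the low-count filter and with only the groups compared. All 5 were called higher in granules than in cytosol in WT without arsenite and 4 of 5 in WDM, against 39.5% and 35.8% of all genes.

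Within groups, that is after each group's mean log2 CPM was removed, the correlation of TIAL1 with NEAT1 over the 18 cytosol libraries was 0.727. It was 0.890 with MALAT1 and 0.908 with KCNQ1OT1, which are descriptions over libraries that share their extraction and depth. Where these within-group values rank among all genes was not counted, so they cannot be called particular to these RNAs. With group means kept, the correlations were 0.658 with NEAT1, 0.669 with MALAT1 and 0.515 with KCNQ1OT1. By Spearman's rho these RNAs then ranked 1012, 589 and 1040 from the top among 11337 genes. Over the 12 granule libraries the correlation within groups was -0.380 with NEAT1, 0.782 with MALAT1 and 0.582 with KCNQ1OT1. These RNAs were set beside TIAL1 after their values had been seen. In WDM tet replicates 1 and 3 NEAT1 stood at 168 and 154 CPM, against 147 to 177 CPM in untreated WDM cytosol. MALAT1 stood at 472 and 393 CPM there, against 432 to 499 CPM untreated. KCNQ1OT1 stood at 9.78 and 10.0 CPM, against 9.80 to 10.7 CPM untreated. TIAL1 stood at 45.5 and 43.8 CPM in these replicates, against 67.2 to 70.4 CPM untreated. The part of these RNAs in the tetracycline difference was not tested.

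**Figure D3:**
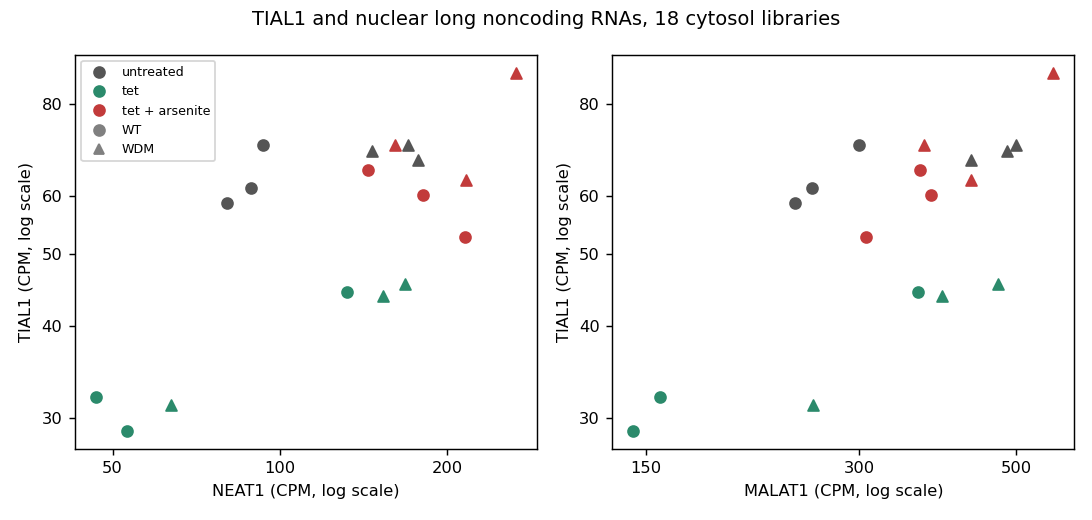
TIAL1 (vertical axis, CPM, log scale) against NEAT1 (left) and MALAT1 (right; horizontal axes, CPM, log scale) in the 18 cytosol libraries, coloured by treatment, with circles for WT and triangles for WDM. The libraries with tetracycline alone lie below the others at a given NEAT1 level, with 3 of them at both the lowest NEAT1 (46.7 to 63.8 CPM) and the lowest TIAL1 (28.8 to 32.0 CPM).

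Per length, TIAL1 was a moderately abundant message. Divided by its 7355 bases of annotated exon, with libraries scaled by TMM, its level was 8.53 ± 0.855 CPM per kb in untreated WT cytosol and 9.39 ± 0.173 in untreated WDM cytosol. This put it at the 79.9th and 81.6th percentile of the genes with a count there. With tetracycline it stood at 5.10 ± 1.09 CPM per kb in WT and 5.53 ± 1.03 in WDM, the 72.7th and 73.7th percentile. In granules without arsenite it reached 15.6 ± 3.57 in WT and 14.8 ± 1.77 in WDM, the 91.5th and 89.9th percentile.

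On the same scale ELAVL1, the ubiquitous Hu protein HuR that stabilises AU-rich messages, stood at 19.2 ± 1.11 CPM per kb in untreated WT cytosol. HNRNPC, which binds U-rich tracts in the nucleus, stood at 148 ± 2.75, and G3BP1, the core scaffold of stress granules, at 29.6 ± 0.531. CELF2, a regulator of splicing that binds GU-rich RNA, had 5.93 ± 0.291 CPM per kb there and 43.4 ± 8.97 in WT granules without arsenite. In untreated WT cytosol 12 of 22 listed U- and AU-rich RNA binders had a level per length above TIAL1, and 22 of 26 stress granule proteins. In WT granules without arsenite the numbers were 8 of 22 and 20 of 26.

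The genes whose pattern was most like that of TIAL1 differed between the fractions. Over the 18 cytosol libraries, among 11337 genes, the highest Pearson correlations of log2 CPM were with the pseudogene DPY19L2P1 (0.913), POLK (0.901), ETNK1 (0.901), NKTR (0.896) and ZNF326 (0.895). POLK encodes a translesion DNA polymerase, ETNK1 an ethanolamine kinase and NKTR a cyclophilin with an RS domain. Lowest were SRSF9 (-0.953), ULBP3 (-0.940) and SEC23A (-0.937), where SRSF9 is an SR splicing factor and SEC23A a coat protein of transport vesicles. SRSF9 stood at 223 ± 10.6 CPM in untreated WT cytosol, 264 ± 9.56 with tetracycline and 229 ± 7.35 with arsenite, so that it was high where TIAL1 was low.

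Over the 12 granule libraries, among 11434 genes, the highest were CBWD4P (0.981), CBWD6 (0.975) and CBWD3 (0.974), which are near-identical copies of 1 gene and count as 1 pattern with uncertain values. They were followed by CWC27, a cyclophilin of the spliceosome (0.971), and CCNH, a cyclin of the transcription factor TFIIH (0.971). Lowest were RPAP1 (-0.971), KIAA0930 (-0.968) and IFNLR1 (-0.966). Of the 5 cytosol genes, DPY19L2P1 (0.956) and NKTR (0.931) were also high in granules, while ETNK1 (-0.198) and ZNF326 (-0.299) were not. The libraries share groups and depth, so these correlations are descriptions without a p.

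The fitted genes next to TIAL1 on chromosome 10 were looked at in turn. Of SFXN4, PRDX3, GRK5 and RGS10 on one side and BAG3, INPP5F, MCMBP and SEC23IP on the other, none was called with tetracycline in either line, and their log2 fold changes lay between -0.24 and 0.20. Of all genes 2.93% were called higher and 2.39% lower in WT, and 3.07% and 3.23% in WDM. With arsenite BAG3, a co-chaperone of HSP70 induced by proteotoxic stress, rose by 0.83 in WT (edgeR adjusted p 0.000687) and by 0.92 in WDM (edgeR adjusted p 0.00029). SFXN4 and PRDX3 were called lower in cytosol in both lines, MCMBP (-0.27) in WT alone and RGS10 (-0.41) in WDM alone. Of all genes 13.7% were called higher with arsenite and 15.4% lower in WT cytosol, and 14.1% and 14.8% in WDM cytosol.

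Other proteins that bind U-rich or AU-rich RNA were 22 by list, with 20 tested in cytosol (ELAVL3 and ELAVL4 not). With tetracycline 1 of 20 rose in WT, against 2.93% of all genes, and 3 rose and 1 fell in WDM, against 3.07% and 3.23%. The list's median log2 fold change was 0.15 and 0.18 against 0.00 for all genes in each line. PTBP2, the neural relative of the polypyrimidine tract binding protein, rose by 0.39 in WT (SE 0.0756, edgeR adjusted p 0.00605) and by 0.59 in WDM (edgeR adjusted p 0.000177). The WT value of PTBP2 moved from 115 ± 6.81 to 147 ± 2.68 CPM. RBMS1 fell by 0.45 in WDM.

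With arsenite 4 of the 20 rose in WT cytosol and 5 in WDM, against 13.7% and 14.1% of all genes, and none fell in either line, against 15.4% and 14.8%. ZFP36, a stress-induced factor that drives decay of AU-rich messages, rose from 1.45 ± 0.287 to 6.61 ± 1.17 CPM in WT (log2 fold change 2.04, edgeR adjusted p 1.47e-05), and by 2.77 in WDM. In granules 8 of 21 rose in each line and 1 fell in WT and 3 in WDM, against 16.5% of all genes called higher and 14.1% lower in WT, and 18.7% and 17.7% in WDM. ZFP36L1 and ZFP36L2, relatives of ZFP36, rose by 1.41 and 1.45 in WT granules. ELAVL1 rose from 106 ± 17.5 to 190 ± 4.56 CPM in WT granules. TRNAU1AP was called lower in WT granules and HNRNPC, PTBP2 and ELAVL2 in WDM granules. Of these calls, TRNAU1AP and ELAVL2 lost theirs in 6 of 6 omissions of 1 library, HNRNPC in 4 of 6 and PTBP2 in 2 of 6.

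Messages reported as targets of TIA1 or TIAL1, 22 by list, had 19 members tested (TNF, MMP13 and EIF4A1 not). With tetracycline MYC, the growth transcription factor, fell in both lines, by 0.60 in WT (SE 0.0952, edgeR adjusted p 0.00253) and by 0.56 in WDM, from 195 ± 3.57 to 125 ± 6.5 CPM in WT. HIF1A, the hypoxia factor whose translation TIA1 proteins are reported to repress, rose by 0.32 in WT, a call lost in 5 of 6 omissions of 1 library. In WDM HIF1A stood at 69.3 ± 5.81 CPM with tetracycline against 58.2 ± 1.44 untreated and was not called. The other 17 tested messages in WT and 18 in WDM were not called, with list medians of 0.07 and 0.03. The shares of all genes called higher and lower were 2.93% and 2.39% in WT, and 3.07% and 3.23% in WDM.

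With arsenite in cytosol 5 of the 19 targets fell in WT and none rose, against 15.4% and 13.7% of all genes. In WDM 4 fell and 2 rose, against 14.8% and 14.1%. PDCD4, a repressor of translation initiation, fell by 0.35 in WT and by 0.36 in WDM. In granules MYC rose, by 0.88 (WT) and 0.70 (WDM, a call lost in 2 of 6 omissions of 1 library), and so did VEGFA, by 0.73 and 0.81, while EEF1B2, a subunit of an elongation factor, had log2 fold changes of -0.78 and -1.44. The calls were 3 higher with 2 lower of 19 for WT, against 16.5% and 14.1% of all genes, while WDM had 3 higher with 4 lower, against 18.7% and 17.7%. Without arsenite most targets were lower in granules than in cytosol, 13 of 19 in WT and 12 in WDM, against 36.2% and 35.3% of all genes. TIAL1 itself lay on the other side. NF1 and PPP1R12A were the 2 targets higher in granules in each line. With arsenite 11 of 19 were lower in each line, against 35.5% of all genes in WT and 35.7% in WDM, and 3 were higher, against 35.0% and 36.3%. The copies SMN1 and SMN2 are nearly identical and their values are uncertain.

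A list of U1 snRNP and 5′ splice site factors held 14 genes, among them NUFIP2 and ZRSR2, which are neither. With arsenite 2 of the 14, LUC7L and PRPF39, were called higher in cytosol and lower in granules in both lines. Of all genes fitted in both fractions 1.36% were. In cytosol 6 of 14 rose in WT and 5 in WDM, against 13.7% and 14.1% of all genes. None fell, against 15.4% and 14.8%, and the list medians were 0.21 and 0.18. In granules 7 fell in WT and 6 in WDM, against 14.1% and 17.7% of all genes. None rose, against 16.5% and 18.7%, and the medians were -0.49 and -0.34 against -0.03 and 0.01 for all genes. The core proteins SNRPC and SNRPA had values below 0 in both fractions, -0.32 and -0.11 in WT cytosol and -0.63 and -0.54 in WT granules. PRPF39, a component of the early splicing complex, moved from 53.7 ± 4.58 to 83.3 ± 2.56 CPM in WT cytosol (log2 fold change 0.50, edgeR adjusted p 0.000239). In WT granules PRPF39 moved from 79.1 ± 17.0 to 46.7 ± 5.79 CPM (-0.74, edgeR adjusted p 0.0018). LUC7L, which helps choose the 5′ splice site, rose by 0.48 in WT cytosol and fell by 0.79 in WT granules. In WDM it rose by 0.60 in cytosol and fell by 0.52 in granules, where its libraries with and without arsenite overlapped.

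Without arsenite 9 of these 14 were higher in granules than in cytosol in each line, against 39.5% of all genes in WT and 35.8% in WDM. With arsenite 2 were in WT, NUFIP2 and PRPF40B, and 1 in WDM, against 35.0% and 36.3%. Called lower in granules were 4 in WT and 3 in WDM without arsenite, against 36.2% and 35.3% of all genes. With arsenite 7 in WT and 8 in WDM were, against 35.5% and 35.7%. Granule enrichment fell with arsenite for 10 of 14 in WT and 8 in WDM, against 19.4% and 16.5% of all genes. SNRPC and SNRPA were instead lower in granules throughout, SNRPC with a log2 fold change of -2.95 in WT without arsenite. With tetracycline none of the 14 was called in WT, against 2.93% of all genes called higher and 2.39% lower. In WDM LUC7L (-0.54), LUC7L3 (-0.52) and FNBP4 (-0.36) fell, where 3.23% of all genes did.

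Splicing genes known for retained introns or poison exons, 23 by list, were all tested. With tetracycline 3 rose and 2 fell in WT, against 2.93% and 2.39% of all genes, and 4 rose and 2 fell in WDM, against 3.07% and 3.23%. SRSF6, an SR protein, rose from 4.22 ± 0.712 to 8.51 ± 0.780 CPM in WT (log2 fold change 1.05, edgeR adjusted p 0.00472), and by 0.77 in WDM. CLK2, a kinase of SR proteins, fell by 0.43 in WT and 0.58 in WDM, and NKTR by 0.36 and 0.34. NKTR, also among the genes most like TIAL1, lost its call in 5 of 6 omissions of 1 library in each line, CLK2 in 3 of 6 in WT, and SRSF6 in 4 of 6 in WDM.

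With arsenite 4 of the 23 rose in WT cytosol and 7 in WDM, against 13.7% and 14.1% of all genes, and none fell, against 15.4% and 14.8%. CLK2 led these at 0.76 and 0.87. In granules 6 fell in WT and 14 in WDM, against 14.1% and 17.7% of all genes, and none rose, against 16.5% and 18.7%. The fall was led by ARGLU1 (-0.99 and -1.07), NKTR (-0.98 and -0.91) and PNISR (-0.97 and -0.98). NKTR stood at 191 ± 43.2 CPM in WT granules without arsenite and 95.7 ± 4.90 with it, while in WT cytosol it moved from 55.7 ± 8.50 to 80.9 ± 2.52. Granule enrichment fell for 9 of 23 in WT and 14 in WDM, against 19.4% and 16.5% of all genes.

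Stress granule proteins, 28 by list with 26 tested (ATXN2L and HNRNPA1 not), gave a mixed picture. With tetracycline G3BP2 and YTHDF1 rose in WT, by 0.34 and 0.37, and YTHDF3 rose in WDM by 0.40. The shares of all genes called higher were 2.93% in WT and 3.07% in WDM. None of the 26 fell in either line, against 2.39% and 3.23% of all genes. G3BP2 lost its call in 5 of 6 omissions of 1 library, and YTHDF1 and YTHDF3 in 4 of 6. With arsenite 4 rose and 3 fell in WT cytosol, against 13.7% and 15.4% of all genes, and 7 rose and none fell in WDM, against 14.1% and 14.8%. ATXN2, a poly(A)-binding partner, had the largest rise in both, 0.73 and 0.72. In granules 5 rose and 2 fell in WT, against 16.5% and 14.1% of all genes, and 8 rose and 5 fell in WDM, against 18.7% and 17.7%. The m6A readers YTHDF1, YTHDF2 and YTHDF3 rose in both lines, by 0.71, 0.78 and 0.77 in WT. EWSR1 and TAF15, which encode RNA-binding proteins, fell in both, TAF15 by 0.67 and 0.46. In WDM YTHDF2 and EWSR1 lost these calls in 2 of 6 omissions of 1 library.

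**Figure D4:**
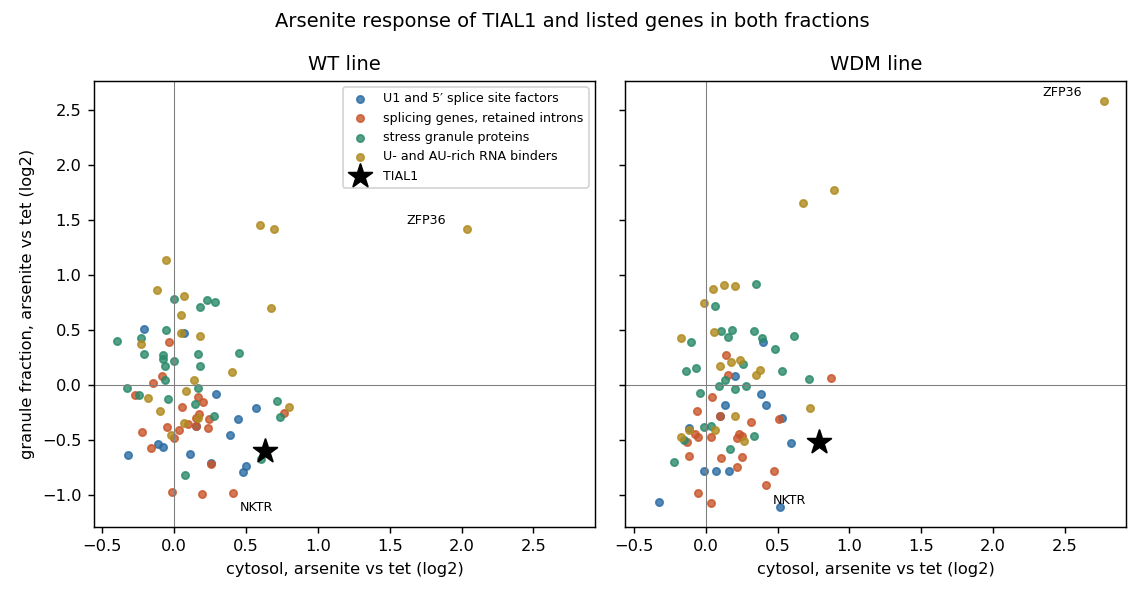
Log2 fold change with arsenite in cytosol (horizontal axis) and in granules (vertical axis) for WT (left) and WDM (right), with TIAL1 as a star and the genes of 4 lists as points. TIAL1 lies at lower right in both panels (0.63 and -0.60 in WT, 0.79 and -0.52 in WDM), as does NKTR, while ZFP36 is high on both axes.

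The combination of a higher cytosol level and a lower granule level with arsenite, which TIAL1 showed in both lines, was looked for after its values had been seen. Of 16159 genes fitted in both fractions, 64 lay at least as far as TIAL1 in the same direction in all 4 comparisons. Calls in these directions in both lines were made for 219 genes, or 1.36%, and the reverse pair of directions for 206. A further 223 genes were higher in all 4 comparisons and 248 lower in all 4. Listed genes among the 219 were LUC7L and PRPF39 of the U1 list and NKTR of the splicing list, with none from the other 4 lists. The cytosol and granule comparisons share no library. In deviations from group means, though, each granule library with arsenite correlated best with the cytosol library of its own line and number. Whether these came from the same cultures was not tested. TIAL1 entered this count with its values known, and its part in it is not a test.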

How the data were processed

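RNA was measured by stranded total-RNA sequencing after rRNA removal in 30 libraries, per the labels' protocols. The authors deposited 1 table of raw counts, with genes in rows and libraries in columns. Trimmomatic, STAR, Picard and featureCounts and the build GRCh38 are named in the submitters' processing notes; the annotation release, the strand setting and the handling of overlapping genes are not given in the sources used here. Groups and replicate numbers came from the sample titles, and no column was left without a sample.

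From these counts CPM was computed on library totals. Differences were fitted with edgeR 4.0.16 in R 4.3.3 (filterByExpr with a minimum count of 10 and a minimum total of 15, TMM factors, robust quasi-likelihood, Benjamini-Hochberg adjustment over all genes of a fit), and calls were made at an adjusted p under 0.05. Cytosol (18 libraries, 16670 genes), granule (12, 18366 genes) and between-fraction comparisons (24, 18141 genes) were fitted separately, and the scripts were tested on simulated data. Level per length is TMM-scaled CPM over the exon length in GENCODE v44, which held 60463 of the identifiers. Likeness is Pearson's r of log2 CPM (prior count 2) over genes that had a symbol and averaged 5 CPM or more. Figures were drawn with Python 3.11.15 and matplotlib 3.10.9.

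The gene and the 6 lists were chosen with earlier results of these data known, and the planned tests of TIAL1 between granule groups are therefore given as values without a p. Named genes were TIAL1 and TIA1, in each list and comparison up to 3 called members with the largest change in each direction, the 5 most and 3 least alike genes, and 4 fitted neighbours on each side. ELAVL1, HNRNPC, G3BP1 and CELF2 (levels per length), ELAVL1 and YTHDF1 in granules, TAF15 in WDM granules, and the correlations with NEAT1, MALAT1 and KCNQ1OT1 were picked after their values had been seen. The alternatives tried were library size alone, RLE factors, omission of the low-count filter, the replicate number as a block, DESeq2 1.42.0, only the groups compared, each library left out in turn, another gene length and Spearman's rho. The interactions, the enrichment changes and the tests of the lists were given the same alternatives after the data were seen. Replicate numbers were checked for pairing by the correlation of deviations from group means: of 17 comparisons, every same-number correlation exceeded 0.1 in 1, WDM granules against cytosol with arsenite (0.296 to 0.548). The result of 1 listed gene is not reported here.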

Additional observations from a re-analysis of the deposited data

Results flagged for a closer look

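With arsenite TIAL1 and 6 listed genes were higher in cytosol and lower in granules in both lines, without overlap between libraries. How many of all genes do so was not counted, so whether 6 is many or few cannot be told. By a different rule, calls in these directions in both lines were made for 1.36% of the genes fitted in both fractions. TIAL1 had a log2 fold change of 0.63 in WT cytosol and 0.79 in WDM cytosol, against -0.60 in WT granules and -0.52 in WDM granules; the difference between fractions was not tested.

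The other 6 genes were picked for these directions, so their values are a description. Called changes of granule enrichment with arsenite are counted by list above, and no test of that change is given for these genes singly. PRPF39 had 0.50 and 0.51 in WT and WDM cytosol against -0.74 and -1.10 in granules. NKTR had 0.41 and 0.42 against -0.98 and -0.91. CLK4 had 0.26 and 0.48 against -0.72 and -0.78. TAF15 had 0.60 and 0.34 against -0.67 and -0.46. OGT, the O-GlcNAc transferase with a known retained intron, had 0.24 and 0.25 against -0.31 and -0.65. TRA2A, an SR-like splicing factor, had 0.23 and 0.32 against -0.39 and -0.33. Of the 6 genes, PRPF39 and NKTR were called by edgeR in all 4 single comparisons. CLK4 was not called in WT cytosol, TAF15 not in WDM cytosol, OGT not in WT granules and TRA2A not in the granules of either line.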

How the results depend on the processing

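Over omissions of 1 library, for TIAL1 the granule change with arsenite ran from -0.72 to -0.44 in WT and from -0.60 to -0.39 in WDM, the granule line difference from -0.26 to 0.040 without arsenite and from -0.11 to 0.038 with it (0.0068 without WT arsenite replicate 2), and the granule interaction from -0.080 to 0.20. Library size alone turned the granule line difference with arsenite to 0.045 and the WDM granule change with arsenite to -0.45. Numbers of called genes over the same omissions were 189 to 1766 for tetracycline in WT cytosol and 422 to 771 in WDM. For arsenite they were 2440 to 7204 in WT cytosol, 2490 to 5251 in WDM cytosol and 3157 to 5418 in WT granules. For the granule line difference they were 570 to 1330 without arsenite and 569 to 1719 with it, and 0 to 5 for the interaction, which no low-count filter moved to 44 and DESeq2 to 9. Fitting only the groups compared gave 220 genes for tetracycline in WT cytosol, and 2737 and 1921 for arsenite in WT and WDM cytosol. The longest transcript as length moved the percentile of untreated WDM cytosol to 82.1. By Spearman's rho 2 of the 5 most alike genes remained in cytosol and 0 in granules. Fewer samples enter the smaller fits, and the causes of these differences were not tested.

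Library size alone moved the share of called genes that were higher from 55.1% to 43.9% for tetracycline in WT cytosol and from 51.7% to 66.0% for the granule line difference with arsenite. Of 2880 list counts under the alternatives 457 moved by over 1.5 times, and of 4542 values of named list genes 488 lost their call and 0 reversed.

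With the replicate number as a block, TIAL1 changed by -0.83 and -0.76 with tetracycline and by -0.59 and -0.51 with arsenite in granules, and tetracycline in WT cytosol called 1290 genes. Where the numbers pair the libraries, the blocked difference was 0.05 against 0.04. In 2 of 17 comparisons every library correlated best with its own number. These were granules against cytosol with arsenite, with same-number correlations of 0.059 to 0.23 in WT and 0.30 to 0.55 in WDM.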
